A study of Homo sapiens with 20 samples.

Results

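The genes described here are 52 genes of DNA replication and the G1/S transition in LNCaP cells, a human prostate adenocarcinoma line, whose EHMT1 level was lowered or raised. They were taken by gene symbol from a list grouped here into 11 roles, and all 52 were found among the 57773 genes of each of the count tables. EHMT1 and its partner EHMT2 are histone H3 lysine 9 methyltransferases. RNA-seq was performed on 20 samples. In the first experiment LNCaP cells were transfected with siRNA pools (20 nmol/L, 2 days), either nontarget (siNTC, 2 samples) or against EHMT1 (siEHMT1, 2 samples). In the second, stable LNCaP lines carried a lentiviral, doxycycline-inducible, V5-tagged EHMT1 open reading frame in addition to their own EHMT1, selected with puromycin. The introduced EHMT1 was WT, had 1 of a pair of adjacent lysines changed to arginine (K450R or K451R), or had both changed (K450RK451R). Each line was left untreated (Veh) or received 0.25 µg/mL of doxycycline for 2 days (Dox), with 2 columns of counts per condition. No line without the EHMT1 construct received doxycycline in these samples, so an effect of the drug and an effect of the induced EHMT1 shared by the lines cannot be told apart.

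Before S phase, the origin recognition complex, CDC6 and CDT1 load the MCM2-7 helicase onto origins. Cyclin E-CDK2 and CDC7-DBF4 then activate it with CDC45 and GINS, and DNA polymerases copy the strands while the sliding clamp PCNA holds them on DNA. Most of these genes are classic targets of E2F transcription factors, which the retinoblastoma protein RB restrains, and their mRNAs are most abundant around the entry into S phase. In RNA from whole cultures, fewer cells in S phase and less mRNA per cell cannot be told apart.

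Total counts lay between 5593400 and 12438006 in the siRNA samples and between 8436791 and 12407739 in the stable-line conditions after the columns were summed. Within every stable-line condition the columns differed by no more than sampling noise (chi-square per degree of freedom 0.995 to 1.02 over all genes with at least 20 summed counts, and 0.794 to 1.18 over the replication genes), so they were counted as 1 sample. The same measure was 61.6 for siNTC and 13.4 for siEHMT1 over all genes, but 2.11 and 3.17 over the replication genes. EHMT1 was at 87.8 and 83.6 CPM (counts scaled to library size with TMM factors) with siNTC and at 29.2 and 30.7 CPM with siEHMT1. In WT, K450R, K451R and K450RK451R it stood at 76.3, 84.2, 71.7 and 88.9 CPM with Veh and at 797, 842, 725 and 663 CPM with Dox, counting reads of the introduced frame. Summed over 9 luminal prostate markers, the level was 5983 to 6299 CPM in the siRNA samples and 11594 to 12868 CPM in the stable lines. Summed over 10 markers of basal, stromal, endothelial and immune cells it was 25.1 to 27.4 CPM with siNTC, 33.9 to 34.2 CPM with siEHMT1, 39.4 to 49.0 CPM with Veh and 37.3 to 43.1 CPM with Dox, with KRT5, TP63, COL1A2 and PTPRC at 0 throughout. Of the 10, COL1A1 was at 15.3 to 17.4 CPM in the siRNA samples and at 30.6 to 40.8 CPM in the stable lines. VWF was at 7.71 to 15.97 CPM in the siRNA samples and at 3.35 to 7.25 CPM in the stable lines. KRT14, COL3A1, CD3E and CD68 reached at most 1.77 CPM. The part of either marker list in the results below was not tested.

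Because these genes are known for E2F sites near their start, their promoters were read first. RefSeq promoters (250 bases before to 50 bases after the start, build GRCh38.p14) were found for 45 of the 52 genes, and MCM4, MCM5, GINS4, CCNE2, POLD3, RPA2 and RPA3 had no entry in the table. The first listed promoter of each gene was searched on both strands. An E2F core (TTCCCGC, the variant TTCGCGC, the variant TTGCCGC or the variant TTGGCGC) was present in 30 of the 45 (66.7%), against 13.1% of 27305 genes with a promoter in the table and 17.1% of the 15843 protein-coding ones. The same core with a further T in front was present in 19 (42.2%), against 4.44% of protein-coding genes. A CCAAT box was present in 23 (51.1%), against 36.4% of protein-coding genes. The cell cycle homology region (TTTGAA, also spelled TTCGAA), an element of genes that peak in G2 and mitosis, was found in 3 (6.67%), against 13.5%, and the E-box CACGTG in 6 (13.3%), against 8.88%. These matches describe letters in the window and were not tested as sites.

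The promoters below are shown because PCNA was the only one of these genes called in any comparison, MCM7 encodes a subunit of the helicase loaded at origins, and CCNE1 and RFC4, like MCM4 and CCNE2, were higher with Dox in all 4 lines and lower on average with siEHMT1. The siEHMT1 log2 fold changes of CCNE1, RFC4, MCM4 and CCNE2 were only -0.06, -0.11, -0.05 and -0.20, and none was called. MCM7, CDC45, POLA2, POLD2 and PCNA, also higher with Dox in all 4 lines, were higher on average with siEHMT1. The printed promoters were located on GRCh37 by exact match, at chr20:5107219-5107518 (minus strand) for PCNA, chr7:99698971-99699270 (minus) for MCM7, chr3:186524222-186524521 (minus) for RFC4 and chr19:30302648-30302947 (plus) for CCNE1. Each is printed 5′ to 3′ along the gene, and capitals mark E2F cores and CCAAT boxes on either strand.
PCNA: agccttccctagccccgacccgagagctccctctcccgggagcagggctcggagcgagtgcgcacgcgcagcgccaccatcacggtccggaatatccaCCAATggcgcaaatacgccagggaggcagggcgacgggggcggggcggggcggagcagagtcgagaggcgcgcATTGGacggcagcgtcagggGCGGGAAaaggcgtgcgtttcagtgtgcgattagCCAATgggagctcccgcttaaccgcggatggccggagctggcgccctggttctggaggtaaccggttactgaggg
MCM7: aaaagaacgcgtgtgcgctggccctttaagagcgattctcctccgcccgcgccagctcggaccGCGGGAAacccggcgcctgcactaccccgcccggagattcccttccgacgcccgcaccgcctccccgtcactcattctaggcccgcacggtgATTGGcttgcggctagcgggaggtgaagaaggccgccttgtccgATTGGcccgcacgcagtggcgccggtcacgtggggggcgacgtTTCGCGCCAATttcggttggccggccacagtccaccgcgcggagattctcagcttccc
RFC4: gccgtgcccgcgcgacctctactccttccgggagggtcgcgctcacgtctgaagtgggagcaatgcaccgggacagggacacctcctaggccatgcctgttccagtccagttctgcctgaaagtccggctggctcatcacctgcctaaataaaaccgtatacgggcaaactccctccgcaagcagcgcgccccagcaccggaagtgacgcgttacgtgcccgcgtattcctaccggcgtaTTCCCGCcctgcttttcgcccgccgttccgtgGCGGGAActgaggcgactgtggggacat
CCNE1: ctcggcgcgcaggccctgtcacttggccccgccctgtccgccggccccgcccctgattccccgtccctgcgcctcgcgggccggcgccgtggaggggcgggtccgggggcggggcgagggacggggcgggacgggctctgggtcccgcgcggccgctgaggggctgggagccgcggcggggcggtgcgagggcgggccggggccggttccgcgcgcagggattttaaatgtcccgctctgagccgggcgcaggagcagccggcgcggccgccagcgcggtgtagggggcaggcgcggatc
In PCNA, 1 E2F core lay at -59 to -53 from the start among 3 CCAAT boxes, and in MCM7 a pair of overlapping cores reached the start itself and ran into a CCAAT box. RFC4 held 2 cores, at -10 to -4 and at 23 to 29, and no CCAAT box. None of these letter strings was found in the CCNE1 window.

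The genes spanned a wide range of abundance. Scaled by the exon length of each gene, the mean level with Veh ran from 0.410 CPM per kb for CLSPN, which relays the signal of stalled forks to CHEK1, to 61.0 CPM per kb for RRM1, the large subunit of ribonucleotide reductase. TK1 (50.7 CPM per kb), the thymidine salvage kinase, and PCNA (44.5 CPM per kb) came next, ahead of SLBP (36.2), which binds histone mRNA, and MCM7 (27.0). With siNTC, PCNA stood highest at 145 CPM per kb, followed by RRM1 (50.8), MCM7 (49.1) and TK1 (48.8), while CLSPN was again lowest (1.68). The mean level per kb was lower with Veh than with siNTC for 43 of the 52 genes and higher for 9. The same count was not made over all genes, so whether this is particular to these genes is not known. The experiments were counted and scaled separately and also differed in transfection, serum and construct, which cannot be told apart. Among the untreated lines the levels of most genes lay close together. The largest ratios of the highest to the lowest line were 2.81 for GINS3, 2.23 for POLE2 and 2.03 for CDC7, 3 genes with low counts whose highest Veh level was in K450RK451R.

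**Figure D1:**
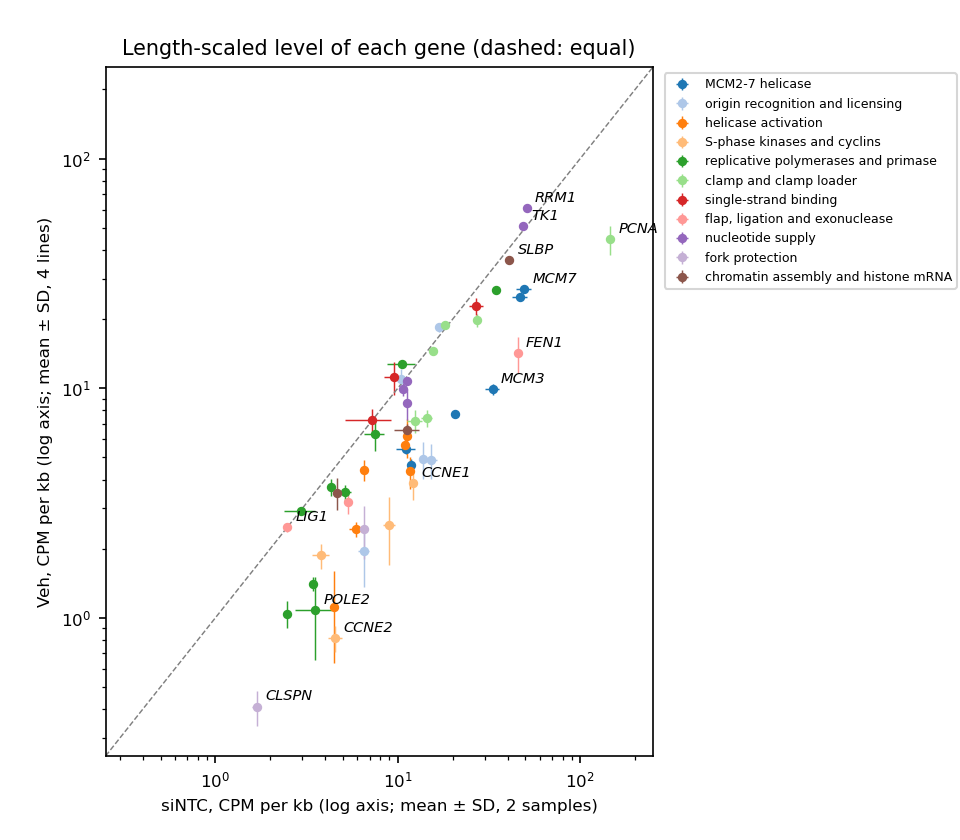
Mean level of each of the 52 genes in CPM per kb of exon, with siNTC on the x axis and with Veh on the y axis (both log axes). Bars give the SD over 2 siNTC samples and over 4 lines, colours give the role, and 43 of the 52 points lie below the dashed line of equal levels. The same count was not made over all genes.

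The first comparison asked whether replication genes moved when EHMT1 was silenced. EHMT1 fell by 1.51 on the log2 scale, yet none of the 52 genes passed an adjusted p of 0.05 (edgeR quasi-likelihood test, Benjamini-Hochberg method over 14532 genes), where 0.131% of all genes did. The smallest adjusted p among them was 0.522. An unadjusted p under 0.05 was reached by 1 of them, against 9.55% of all genes. The limma-voom fit and edgeR's legacy method likewise called none. DESeq2 called none of the 25 genes to which it gave an adjusted p, and POLE2, CLSPN, TIPIN and DUT were not among these. By sign, 23 genes were higher and 29 lower with siEHMT1, with a median log2 fold change of -0.02, against -0.0021 over all genes. The fold changes lay between -0.37 and 0.27 on the log2 scale. Their 95% intervals stayed within 1.5-fold of no change for 50 genes and within 2-fold for all 52, so larger changes lay outside the intervals. Both siEHMT1 samples stood above both siNTC samples for 8 genes (15.4%, against 19.9% of all genes) and below them for 10 (19.2%, against 19.8%).

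Among the licensing factors, the MCM2-7 subunits split evenly, with 3 higher and 3 lower. MCM7 (ENSG00000166508, chromosome 7 from 99689856 to 99699563 in GRCh37) was at 261 and 226 CPM with siNTC and at 260 and 251 CPM with siEHMT1. These values overlapped, and the log2 fold change of 0.07 (SE 0.092) had an adjusted p of 0.867 in edgeR's test. MCM3 was at 128 and 113 CPM with siNTC and 139 and 136 CPM with siEHMT1, so its groups did not overlap, but its adjusted p was 0.542 with a log2 fold change of 0.19. MCM2, MCM4, MCM5 and MCM6 lay between -0.06 and 0.15. ORC1, ORC6, CDC6 and CDT1 had log2 fold changes between -0.08 and -0.01, and GMNN, which encodes the CDT1 inhibitor geminin, one of 0.17.

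Of the helicase activators, GINS3 was among the lowest values, at 23.0 and 22.9 CPM with siNTC and 21.1 and 21.0 CPM with siEHMT1, a log2 fold change of -0.12 (adjusted p = 0.837, edgeR). CCNE2, which encodes a cyclin E, was at 18.7 and 21.1 CPM with siNTC and at 15.7 and 18.8 CPM with siEHMT1, a log2 fold change of -0.20 (adjusted p = 0.734, edgeR). For CCNE2 the groups overlapped. The other S-phase kinase and cyclin genes CDC7, DBF4 and CCNE1 had log2 fold changes of 0.11, -0.09 and -0.06.

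At the fork, POLE2, an accessory subunit of the leading-strand polymerase, had the lowest fold change in edgeR's fit of all 4 samples. It was at 8.69 and 12.1 CPM with siNTC and at 7.52 and 8.22 CPM with siEHMT1, from 61 to 103 counts per sample, a log2 fold change of -0.37 (95% interval -0.84 to 0.10, adjusted p = 0.626 in edgeR's test). Its groups did not overlap, but its value moved to -0.61 without siNTC replicate 1 and to -0.14 without siNTC replicate 2. CLSPN was the lower of the pair without siNTC replicate 2 (-0.28) and without siEHMT1 replicate 1 (-0.35, against -0.32 for POLE2). The same held in limma-voom's fit of all 4 samples (-0.32, against -0.30 for POLE2). POLE, the gene of the catalytic partner of POLE2, was at 0.02. POLA2 of the primase complex was at 40.9 and 41.5 CPM with siNTC and at 43.8 and 52.9 CPM with siEHMT1, a log2 fold change of 0.23 (adjusted p = 0.562, edgeR). RFC1, the large subunit of the clamp loader, was at 126 and 118 CPM with siNTC and at 105 and 110 CPM with siEHMT1, a log2 fold change of -0.19 (adjusted p = 0.539, edgeR). PCNA (ENSG00000132646) was at 210 and 198 CPM with siNTC and at 219 and 205 CPM with siEHMT1. Its groups overlapped and its log2 fold change was 0.06 (95% interval -0.13 to 0.24, adjusted p = 0.893 in edgeR's test).

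The only gene with an unadjusted p under 0.05 was DUT, the dUTPase that keeps uracil out of DNA, at 40.5 and 37.9 CPM with siNTC and 48.9 and 44.2 CPM with siEHMT1. Both siEHMT1 samples were higher and the log2 fold change was 0.24, with an adjusted p of 0.522 in edgeR's test. The other nucleotide supply genes RRM1, RRM2, TYMS and TK1 lay between -0.11 and -0.01. The fork protection genes TIPIN, whose product pairs with TIMELESS, and CLSPN had opposite signs. TIPIN was at 17.8 and 18.2 CPM with siNTC and at 21.1 and 22.1 CPM with siEHMT1, a log2 fold change of 0.27 (adjusted p = 0.600, edgeR). CLSPN was at 15.5 and 16.8 CPM with siNTC and at 12.8 and 12.7 CPM with siEHMT1, a log2 fold change of -0.33 (adjusted p = 0.563, edgeR). In neither gene did the groups overlap.

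**Figure D2:**
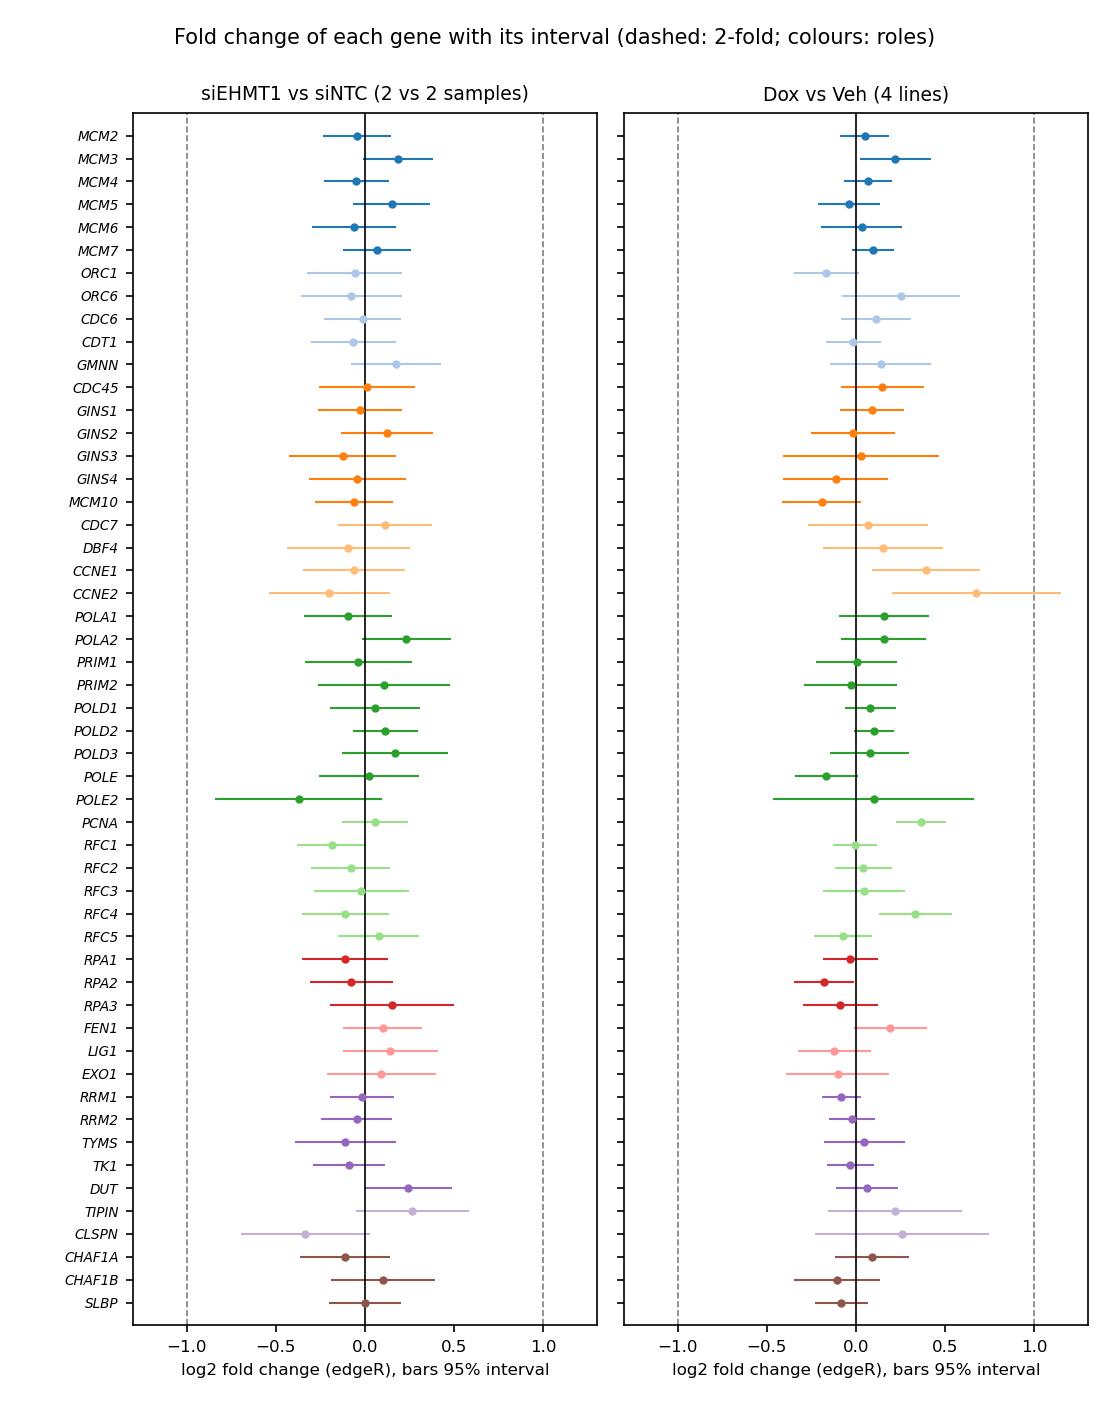
Log2 fold change of each of the 52 genes (points) with its 95% interval (bars) from edgeR, for siEHMT1 against siNTC at left and for Dox against Veh across the 4 lines at right, with roles in colour and dashed lines at 2-fold. All siRNA intervals lie between the dashed lines, and in the right panel PCNA lies above 0 with a narrow interval while that of CCNE2 crosses the upper dashed line.

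The second comparison took the 4 lines as replicates of the Dox effect, with line as a block. PCNA was the only one of the 52 genes called, where 2.11% of the 14105 genes tested were called, 0.603% higher and 1.51% lower. An unadjusted p under 0.05 was reached by 6 of them (PCNA, RFC4, CCNE1, CCNE2, MCM3 and RPA2), against 14.4% of all genes. By sign, 32 genes were higher (61.5%, against 51.2% of all genes) and 20 lower, with a median log2 fold change of 0.05, against 0.0050 over all genes. The 95% interval lay within 1.5-fold of no change for 47 genes and within 2-fold for 51. In all 4 lines 9 genes were higher (17.3%, against 10.7% of all genes) and 3 were lower (5.77%, against 10.1%). The 9 were MCM4, MCM7, CDC45, CCNE1, CCNE2, POLA2, POLD2, PCNA and RFC4, and the 3 were ORC1, RPA2 and RRM1. Every Dox value exceeded every Veh value for RFC4 alone (2.27% of all genes), and every Dox value was below every Veh value for RPA2 and RRM1 (2.32% of all genes).

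PCNA (chromosome 20 from 5095599 to 5107272 in GRCh37) had no exon shared with another annotated gene. Its level was 50.98, 59.7, 70.99 and 67.96 CPM with Veh in WT, K450R, K451R and K450RK451R, and 62.2, 74.7, 88.5 and 96.7 CPM with Dox in the same order. The lines differed in their starting level, so the groups overlapped, but each line was higher with Dox. It rose by 28.6% across the lines, a log2 fold change of 0.36 (SE 0.069) with an adjusted p of 0.00268 in edgeR's test. Within the lines the log2 ratio was 0.29, 0.32, 0.32 and 0.51, and the 95% counting interval excluded 0 in each. With the line not used as a block the call was lost (adjusted p = 0.312 in edgeR's test), and over all alternatives the adjusted p ran from 1.13e-06 to 0.312. The low end came from counting the columns of a condition, which differ by sampling noise only, as separate samples. The lowest adjusted p of the other alternatives was 0.00138 (edgeR, no filter on low counts). Under siEHMT1 the interval of PCNA included 0, as given above.

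The clamp loader gene RFC4 (chromosome 3 from 186507669 to 186524847) was at 20.7, 22.3, 20.9 and 24.95 CPM with Veh and at 25.9, 27.0, 30.6 and 28.6 CPM with Dox. All Dox values were above all Veh values, and the log2 fold change of 0.33 (SE 0.10) had an adjusted p of 0.0796 in edgeR's test. Its exons share 18 bases (0.601%) with EIF4A2 on the opposite strand. The other loader genes RFC1, RFC2, RFC3 and RFC5 lay between -0.07 and 0.05. Of the single-strand binding genes, RPA2 was at 44.6, 50.6, 42.4 and 42.3 CPM with Veh and at 41.0, 39.5, 35.7 and 41.8 CPM with Dox. Its log2 fold change was -0.18 (adjusted p = 0.292, edgeR), and RPA1 and RPA3 were at -0.03 and -0.09.

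The cyclin E genes, whose products drive entry into S phase with CDK2, had the highest fold changes over the 4 lines together. CCNE1 (chromosome 19 from 30302898 to 30315219) was at 7.68, 9.002, 10.8 and 10.3 CPM with Veh and at 8.11, 12.5, 15.4 and 14.1 CPM with Dox. Its level hardly differed in WT (72 counts with Dox, 91 in the deeper Veh library) and was higher by 0.47, 0.51 and 0.45 on the log2 scale in K450R, K451R and K450RK451R. The 95% counting interval in WT, -0.39 to 0.54, was wide enough to hold these values. Across the lines the log2 fold change was 0.39 (SE 0.15) and edgeR's adjusted p 0.180. CCNE2 rested on few reads, 41, 27, 35 and 32 counts with Veh and 43, 37, 72 and 102 with Dox, or 3.46, 3.33, 4.25 and 3.25 CPM and 4.85, 3.95, 5.86 and 7.90 CPM. The highest of these was K450RK451R with Dox. The log2 fold change was 0.68 (95% interval 0.20 to 1.15, adjusted p = 0.138 in edgeR's test). Without the K450RK451R line it was 0.41 (edgeR adjusted p = 0.597), and over all alternatives the adjusted p ran from 0.0042 to 0.597. The low end came from counting the columns of a condition, which differ by sampling noise only, as separate samples. The lowest adjusted p of the other alternatives was 0.0965 (edgeR, no filter on low counts).

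CCNE2 shares 37% of its exon bases with INTS8 on the opposite strand, and whether the counting used strand is not given in the sources used here. INTS8 was at 40.8, 35.3, 37.7 and 41.8 CPM with Veh and at 29.0, 39.0, 40.0 and 37.8 CPM with Dox, so it was lower in WT and K450RK451R and higher in the others, while CCNE2 was higher in all 4. Its part in the CCNE2 values was not tested. TYMS, the thymidylate synthase gene, shares 39.9% of its exon bases with ENOSF1, and MCM7 7.90% with AP4M1, also on opposite strands. FEN1, the flap endonuclease gene, shares 2.23% with FADS2 on the same strand.

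The kinase partners CDC7 and DBF4, which phosphorylate the loaded helicase, were at 0.07 and 0.15. CLSPN was at 3.38, 4.93, 3.77 and 3.65 CPM with Veh and at 4.73, 3.52, 4.39 and 5.73 CPM with Dox, lower only in K450R. Its log2 fold change of 0.26 had an adjusted p of 0.680 in edgeR's test.

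**Figure D3:**
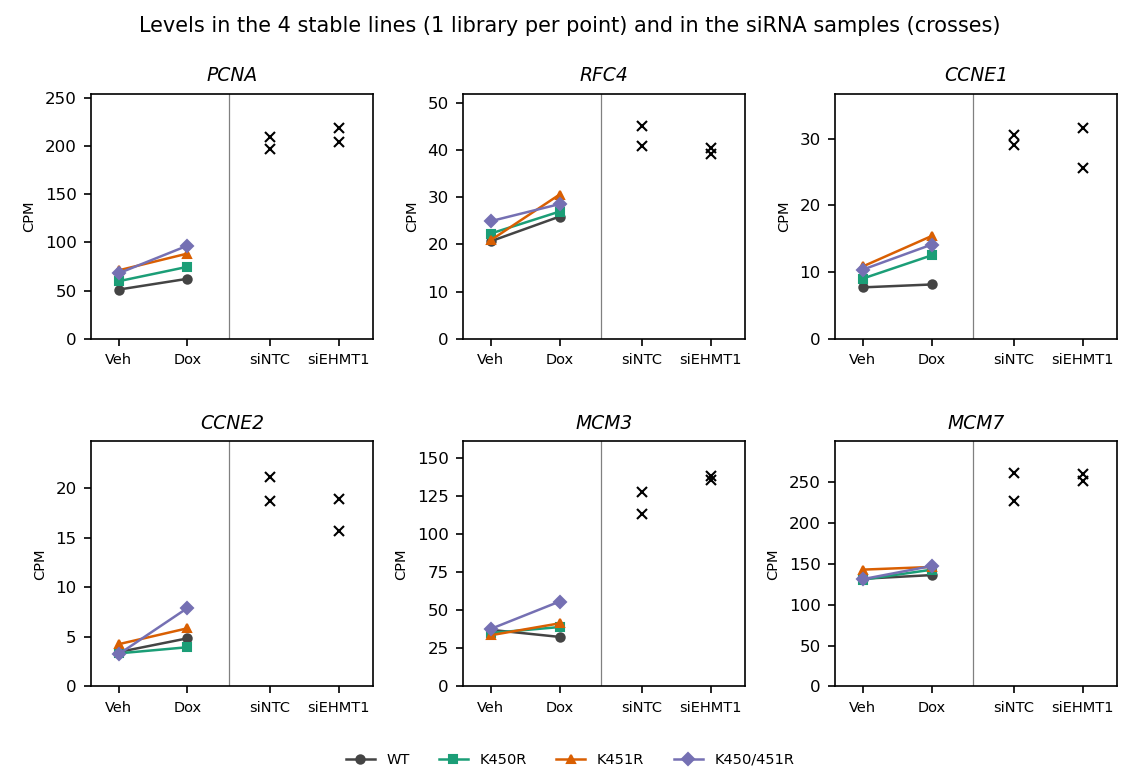
CPM of 6 genes with Veh and Dox in each stable line (joined symbols, 1 library each) and in each siNTC and siEHMT1 sample (crosses), with each y axis starting at 0. PCNA rises from Veh to Dox in all 4 lines, CCNE1 is flat in WT (7.68 and 8.11 CPM), and MCM3 is lower with Dox in WT (37.2 and 32.6 CPM).

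In the helicase itself, 5 of the 6 MCM2-7 genes were higher with Dox and none was called. MCM7 was at 132, 131, 143 and 131 CPM with Veh and at 136, 143, 146 and 147 CPM with Dox. The values overlapped, and the log2 fold change of 0.09 (95% interval -0.03 to 0.21) had an adjusted p of 0.493 in edgeR's test. MCM3 was at 37.2, 35.1, 33.7 and 37.8 CPM with Veh and at 32.6, 39.0, 41.5 and 55.8 CPM with Dox. It was lower with Dox in WT and higher in the mutant lines, with a log2 fold change of 0.22 across all 4 (adjusted p = 0.274, edgeR). The 95% counting interval included 0 in WT (-0.41 to 0.02) and K450R (-0.08 to 0.38) and lay above 0 in K451R and K450RK451R. Without the WT line, MCM3 (0.35, adjusted p = 0.0352 in edgeR's test) and FEN1 were called beside PCNA, 3 of the 52 genes. That fit called 501 of the 14210 genes tested, against 298 of 14105 with all 4 lines. Without the K450RK451R line, the MCM3 value was 0.08 (edgeR adjusted p = 0.825), and over all alternatives its adjusted p ran from 0.0352 to 0.825.

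The lowest fold changes belonged to genes of several complexes. MCM10, which helps to activate the helicase, was at 20.4, 20.3, 27.2 and 26.7 CPM with Veh and at 18.8, 21.7, 21.2 and 21.3 CPM with Dox. It was higher with Dox only in K450R, and its log2 fold change of -0.19 had an adjusted p of 0.427 in edgeR's test. POLE and ORC1, a subunit of the origin recognition complex, both had log2 fold changes of -0.17 (adjusted p of 0.378 and 0.406, edgeR), and LIG1, the ligase that seals Okazaki fragments, one of -0.12 (adjusted p = 0.631, edgeR). ORC1 was lower with Dox in all 4 lines, POLE in all but K450RK451R, and LIG1 likewise in all but K450RK451R. RRM1, the most abundant gene per kb, was at 255, 257, 268 and 252 CPM with Veh and at 248, 233, 252 and 241 CPM with Dox. The groups did not overlap, but the log2 fold change was only -0.08 (adjusted p = 0.503, edgeR). The other nucleotide supply genes lay between -0.03 and 0.06.

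Within each line there was 1 library per condition, so these ratios have no test, and their intervals cover counting error only. The median log2 ratio of Dox over Veh over the 52 genes was 0.04 in WT, 0.06 in K450R, 0.09 in K451R and 0.08 in K450RK451R, against medians of all genes from 0.00096 to 0.0087. In WT, the counting interval lay above 0 for 2 genes, PCNA and RFC4 (3.85%, against 11.5% of all genes), and below 0 for 6 (11.5%, against 11.3%), MCM5, ORC1, GINS4, POLE, FEN1 and LIG1. In K450R it lay above 0 for 7 (13.5%, against 12.8%) and below for 6 (11.5%, against 13.1%). In K451R it lay above 0 for 10 (19.2%, against 12.6%) and below for 4 (7.69%, against 14.6%). In K450RK451R it lay above 0 for 15 (28.8%, against 16.8%) and below for 7 (13.5%, against 17.8%). Among genes at least as abundant as the lowest of the 52, the shares above 0 were 12.3%, 14.1%, 13.7% and 17.8% in the same order and those below 0 were 12%, 14.2%, 16.1% and 19.6%.

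The 15 genes of K450RK451R came from most steps of replication. They were MCM2, MCM3 and MCM7 of the helicase, CCNE1 and CCNE2, the polymerase and primase genes POLA1, POLA2, PRIM1 and POLD1, PCNA and RFC3, FEN1, TIPIN, CLSPN and the chromatin assembly factor gene CHAF1A. The 7 below 0 were GINS2, GINS3, MCM10, POLE2, RPA1, TK1 and SLBP. Counting ratios at least 25% up or 20% down instead, WT had 5 and 6 genes (all genes 12% and 14.2%) and K450R had 10 and 4 (all genes 16.1% and 13.8%). K451R had 7 and 1 (all genes 15.7% and 13.4%), and K450RK451R had 9 and 3 (all genes 18.4% and 14%). Among the roles, the S-phase kinase and cyclin genes had medians of 0.20, 0.31, 0.40 and 0.37 over 4 genes in WT, K450R, K451R and K450RK451R. These were the highest of the 11 roles in K450R and K451R, while the 2 fork protection genes had higher medians in WT (0.31) and K450RK451R (0.58). CDC7, 1 of the 4, was lower with Dox in WT and K450RK451R (log2 ratios of -0.04 and -0.27). FEN1 had a negative ratio in WT alone, from 26.2 to 20.8 CPM, and went from 26.9 to 37.01, from 33.5 to 41.5 and from 38.1 to 45.5 CPM in the mutant lines, by the counts of single libraries.

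**Figure D4:**
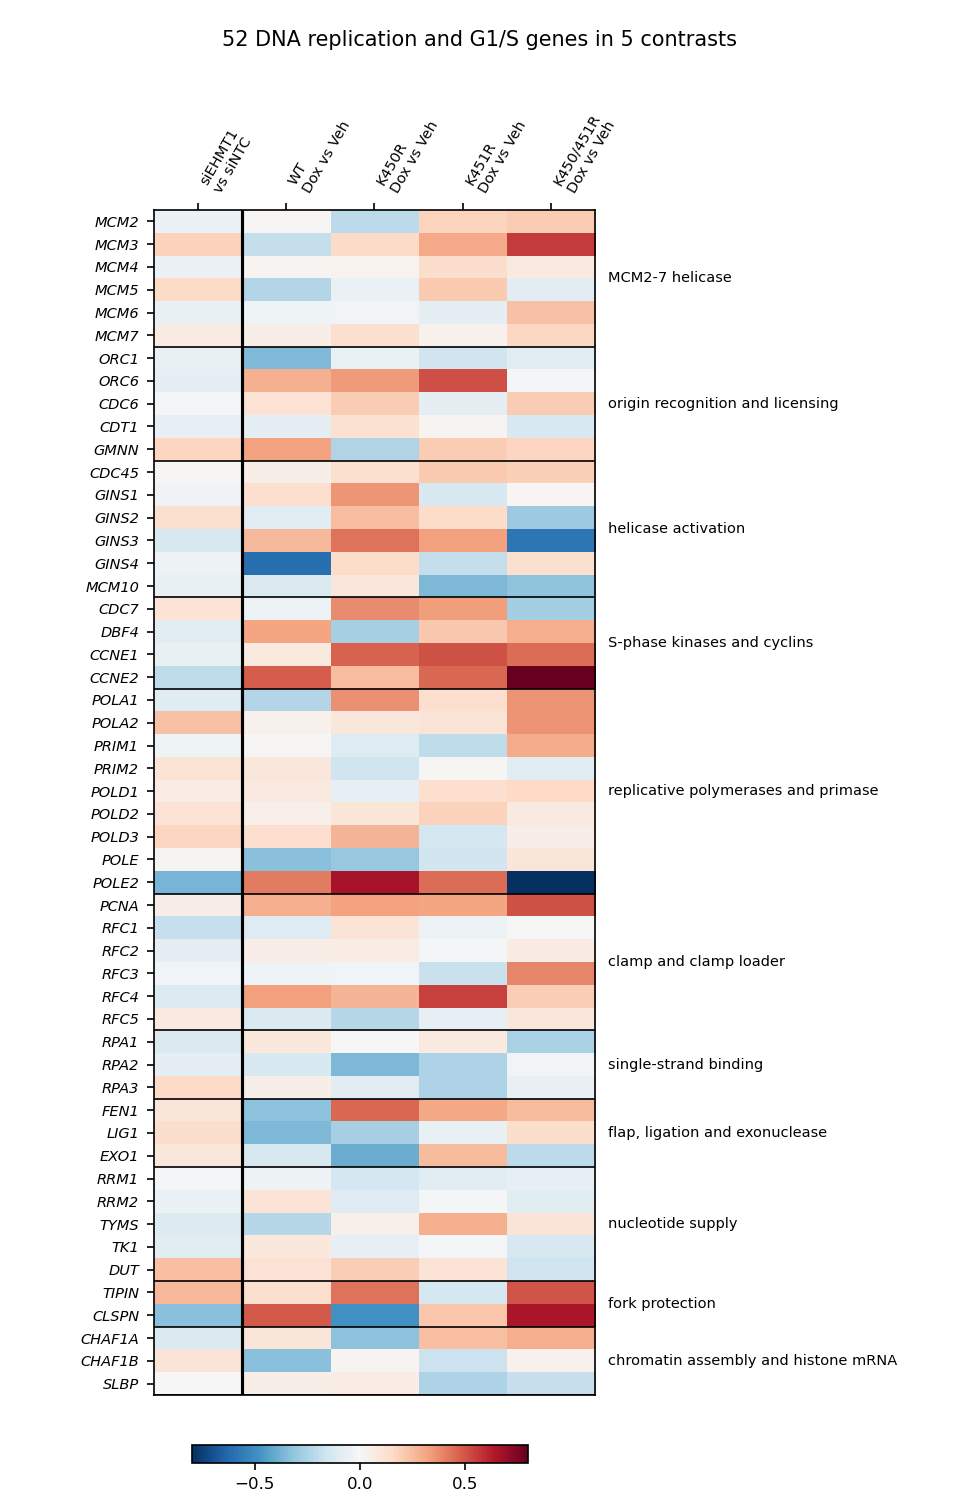
Log2 fold change of the 52 genes (rows, by role) for siEHMT1 against siNTC and for Dox against Veh in each line (columns), with red higher and blue lower and the colour limited to ±0.8. The siRNA column is pale throughout (-0.37 to 0.27), and the PCNA row is red in all 4 line columns.

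The third comparison asked whether K450RK451R responded to Dox differently from the other 3 lines, tested as an interaction that takes the single K450RK451R difference to vary like those of the others. None of the 52 genes was called by edgeR's quasi-likelihood test (smallest adjusted p 0.612), where 0.0142% of all genes were, and limma-voom called none of them either. An unadjusted p under 0.05 was reached by 3 (7.39% of all genes). By sign, 33 genes had a higher ratio in K450RK451R (63.5%, against 49.5% of all genes), with a median difference of 0.07 on the log2 scale. The 95% intervals of the difference stayed within 1.5-fold for only 23 genes and within 2-fold for 45, so differences of that size were within reach of the error for the rest.

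MCM3 had a log2 ratio of 0.56 in K450RK451R and a mean of 0.09 in the others, a difference of 0.47 (95% interval 0.08 to 0.87, adjusted p = 0.612 in edgeR's test). CCNE2 and CLSPN had larger differences, 0.87 and 0.56, with wider intervals (-0.13 to 1.87 and -0.49 to 1.6) and adjusted p of 0.730 and 0.857 in the same edgeR test. Among the lowest differences, POLE2 was at 2.19, 2.10, 3.77 and 4.67 CPM with Veh and at 2.93, 3.31, 5.13 and 2.63 CPM with Dox. It was lower with Dox in K450RK451R alone, where 46 counts with Veh and 34 with Dox were read, and the difference was -1.31 (adjusted p = 0.640, edgeR). GINS3, a subunit of the GINS complex, was at 3.21, 4.81, 5.71 and 9.03 CPM with Veh and at 3.83, 6.51, 7.16 and 6.04 CPM with Dox, a difference of -0.92 (adjusted p = 0.663, edgeR). CDC7 followed at -0.51 (adjusted p = 0.777, edgeR). All 3 had their highest Veh level in K450RK451R. PCNA differed by 0.20 (95% interval -0.11 to 0.51, adjusted p = 0.813, edgeR).

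The experiments with less and with more EHMT1 share no samples. Across the 52 genes, the siEHMT1 and Dox log2 fold changes were correlated with a Pearson coefficient of -0.15 and a Spearman coefficient of -0.07, against -0.09 and -0.10 over the 13617 genes in both fits, as a description across genes that are not independent. The signs were opposite for 29 genes (55.8%), against 53.4% of all genes.

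Other lists of the cell cycle were set beside these genes. Of 40 other replication genes none was called with siEHMT1, and with Dox 1 was called by edgeR, the histone chaperone gene ASF1B (log2 fold change 0.38, adjusted p = 0.0448). ASF1B was higher in all 4 lines, by 0.21, 0.22, 0.31 and 0.71. None of 24 regulators of G1/S was called in either comparison, and E2F1 was at 0.07 with siEHMT1 and at 0.04 with Dox. None of 20 G2/M and mitosis genes was called either. With Dox, 14 of these were lower, with a median of -0.05, where 6890 of all 14105 genes were lower. Clustered histone genes, whose transcripts depend on SLBP in S phase, were higher with siEHMT1 for 33 of 43 (median 0.10, none called). With Dox they were higher for 32 of 42 (median 0.05, 2 called). Over all genes, 7206 of 14532 were higher with siEHMT1 and 7215 of 14105 with Dox. The shares of all genes called were 0.131% with siEHMT1 and 2.11% with Dox. SLBP itself was at 0.0013 with siEHMT1 and at -0.08 with Dox.

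**Figure D5:**
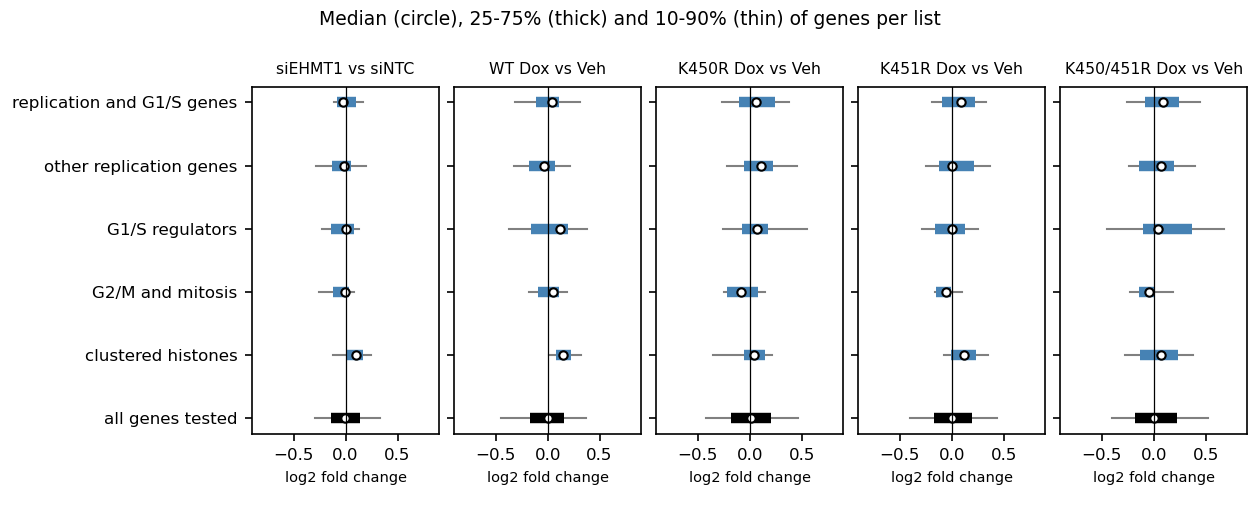
Spread of log2 fold changes over the genes of each list (rows) for siEHMT1 and for Dox in each line (panels), with circles at the median, thick bars from 25% to 75% and thin bars from 10% to 90% of genes. The medians of the 52 replication and G1/S genes lie within 0.1 of 0 in every panel, inside the middle range of all genes tested.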

How the data were processed

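Total RNA of the LNCaP samples was made into stranded libraries and sequenced as single-end reads mapped to hg19, and the authors deposited raw counts, the whole number of reads on each Ensembl gene without normalization. The submitters' processing notes list FastQC 0.11.9, STAR 2.7.2 and featureCounts 1.6.4, while the annotation release and the strand setting are not given in the sources used here. The genes and lists were chosen with earlier results of these data known. Counts were fitted over the whole of each table with edgeR 4.0.16 in R 4.3.3 (TMM, filterByExpr, quasi-likelihood test, Benjamini-Hochberg adjustment), after the scripts were tested on simulated data. Nothing says whether the siRNA samples are separate cultures, so p-values measure the spread between these samples, which may be technical. Genes named were those called, the 5 highest and 5 lowest per comparison (3 for the K450RK451R difference), MCM7 and PCNA, and other genes were named after their values were seen. Ratios within a line have exact binomial 95% intervals. Levels per kb used union exons of GENCODE on GRCh37. Alternatives used DESeq2 1.42.0, limma 3.58.1, other scalings and filters, left-out samples or lines, and replicate blocks. Same-numbered siRNA samples did not deviate together (Pearson -0.000617, Spearman 0.0289 across genes).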

Additional observations from a re-analysis of the deposited data

Results flagged for a closer look

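For 3 of the 52 genes, the log2 ratio of Dox over Veh in a line stood apart from the other 3 by Dixon's criterion on the gap over the range. Chance meets this criterion in about 1 in 20 groups, a share close to that seen here, and the share over all genes was not computed. CCNE1 was at 0.079 in WT and at 0.47, 0.51 and 0.45 in K450R, K451R and K450RK451R. POLE2 was at -0.83 in K450RK451R, on 46 and 34 counts, and at 0.42, 0.66 and 0.44 in WT, K450R and K451R. PCNA was at 0.51 in K450RK451R and at 0.29, 0.32 and 0.32 in the others. The interaction test did not call the K450RK451R difference for POLE2 or PCNA (adjusted p of 0.640 and 0.813, edgeR), and the WT difference of CCNE1 was not tested.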

How the results depend on the processing

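Of 248 values recomputed under the alternatives, 231 kept their direction or size and their side of the threshold. No alternative called any of the 52 genes with siEHMT1 or for the K450RK451R difference. The siEHMT1 median ran from -0.05 to 0.03, and MCM7 from -0.03 to 0.17, so these directions depended on the setting. With the replicate number as a block the siEHMT1 fit called 118 genes in all instead of 19, and still 0 of the 52. For Dox across lines, leaving out a line gave 1 to 3 of the 52 genes called. The 3 came without WT, where 501 of all 14210 genes tested were called. Without line as a block 0 of the 52 were called (PCNA at 0.38, adjusted p = 0.312, edgeR), and 4 of all 14105. With the columns as separate samples 7 of the 52 were called without the replicate block and 6 with it, among them CCNE1, CCNE2, RFC4 and RPA2. Over all 12673 genes tested, 2000 were called without the replicate block and 1900 with it. The columns of a condition differ by sampling noise only, so that test compares libraries. Counts of genes at least 20% down moved from 6 to 3 in WT with upper-quartile scaling, and with column 2 alone from 1 to 7 in K451R and from 3 to 5 in K450RK451R. The WT median was -0.01 with column 1 alone. DESeq2 gave an adjusted p for only 25 of the 52 genes with siEHMT1. Depth limited CCNE2, CLSPN, POLE2 and GINS3 most, with at most 102 counts in any stable-line condition.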
